A study of Homo sapiens with 12 samples.

Results

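The liver X receptors (LXRs) and their targets in cholesterol efflux were followed as 7 genes in HCT-116, an established line from a human colorectal carcinoma. They are the receptor genes NR1H2 and NR1H3, the transporter genes ABCA1 and ABCG1, and the LXR targets MYLIP, LPCAT3 and SMPDL3A. Each was found by its gene name among the 59172 features of the expression table, and each had a single row. The 12 RNA-seq libraries form 4 groups of 3. The first group is SHP2-silenced cells given CPT-11 (irinotecan, a topoisomerase I inhibitor) for 24 h, called silenced cells here. The second is wild-type cells pretreated with lovastatin, an inhibitor of HMG-CoA reductase, for 4 h and given CPT-11 for 24 h. The third is wild-type cells given CPT-11 alone for 24 h, and the fourth is untreated wild-type cells. The titles name the silenced cells shSHP2CPT11, and their treatment label also mentions lovastatin, so that title and label conflict; they were grouped by title. No group in use had lovastatin or silencing without CPT-11, and the labels give neither the hairpin nor a hairpin control.

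LXRs are nuclear receptors that pair with retinoid X receptors and are activated by oxysterols and by desmosterol, which build up when a cell holds surplus sterol. Active LXR raises transporters that carry cholesterol out of the cell and MYLIP, a ubiquitin ligase that marks lipoprotein receptors for breakdown. SREBP2 works on the other side of the balance: it is activated when sterol in the endoplasmic reticulum is low and raises genes of sterol synthesis and uptake.

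ABCA1 is the member whose level differed most between treated and untreated cells, and its promoter is shown for the LXR motif in it. The promoter from RefSeq (GRCh38.p14, chr9:104928106-104928405, minus strand) runs from 250 bases before to 50 bases after the transcription start. The later block of capitals is the best match to the direct repeat bound by LXR with its partner, which is AGGTCA, any 4 bases, and AGGTCA again. The earlier block is the E-box CACGTG.
ABCA1 promoter: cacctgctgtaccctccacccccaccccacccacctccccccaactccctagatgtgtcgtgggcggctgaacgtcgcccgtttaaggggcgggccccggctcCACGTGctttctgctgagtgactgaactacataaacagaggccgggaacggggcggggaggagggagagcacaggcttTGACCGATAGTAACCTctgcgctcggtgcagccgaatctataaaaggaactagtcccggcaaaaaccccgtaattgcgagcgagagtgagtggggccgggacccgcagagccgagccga
Both strands were searched, and the match lies on the strand opposite to the one printed, with 10 of 12 motif positions met. It spans bases -69 to -54 relative to the start. Of 35116 promoters of this length, 2.34% held a match this good or better, and 7.26% held CACGTG. The promoters of 5 of the 7 genes were in the RefSeq table; ABCG1 and SMPDL3A are named only. The best windows of the others are given along the motif, with matched bases in capitals, to show how much further from it they are.
NR1H2 window: gGcTCAgagaAGcgCA
MYLIP window: cGGcCAgggaAacTCA
LPCAT3 window: AGGTaggaagAGGgCg
Each of these 3 met 8 of the 12 positions, and 72.5% of all promoters met at least 8. The 4 promoters of NR1H3 met 7 or 8. A match describes the letters in the window and not binding. Only the 250 bases before and the 50 after each start were searched, so sites elsewhere were not seen.

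ABCA1 messenger RNA is also a known target of miR-33, a pair of microRNAs encoded within SREBF2 and SREBF1. Their mature sequences are shown with the seed, bases 2 to 8, in capitals, since both share it.
miR-33a-5p: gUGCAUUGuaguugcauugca
miR-33b-5p: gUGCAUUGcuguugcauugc
The 3313 bases after the ABCA1 stop codon held 4 matches to this seed, written CAATGCA in DNA. A cluster of 3 lies 135 to 156 bases after the stop codon (GRCh38, chr9:104784158-104784184, minus strand), where the first and the second share bases.
ABCA1 seed matches: tattCAATGCAATGCAattCAATGCAa
Mature microRNAs were not measured in these libraries.

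Between 14447847 and 16224271 reads per library were assigned to features. PTPN11, which encodes SHP2, had 6.01, 6.54 and 7.15 FPKM in silenced cells, and between 43.2 and 55.4 FPKM in the 9 other libraries. HMGCS1, an SREBP2 target, averaged 25.4 ± 0.431 FPKM in silenced cells, 103 ± 1.98 FPKM after lovastatin and CPT-11, 28.7 ± 3.12 FPKM with CPT-11 alone and 29.6 ± 1.45 FPKM in untreated cells (SD, n = 3 each). It was thus high in the lovastatin group and not in the group whose treatment label also mentions lovastatin. All 5 epithelial markers were tested, with a summed level of 1097 to 1127 FPKM in silenced cells, 1135 to 1214 FPKM after lovastatin, 961 to 1122 FPKM with CPT-11 alone and 844 to 937 FPKM in untreated cells. Of 6 macrophage and blood cell markers 2 were tested; PTPRC, CD68, CD163 and CD14 had at most 10 reads in any library. The 6 summed to 1.14 to 1.43 FPKM in silenced cells, 0.791 to 1.14 FPKM after lovastatin, 0.761 to 1.155 FPKM with CPT-11 alone and 0.301 to 0.476 FPKM in untreated cells. The 5 fibroblast and endothelial markers, of which 3 were tested, summed to 5.41 to 6.27 FPKM in silenced cells, 5.10 to 5.47 FPKM after lovastatin, 3.66 to 5.32 FPKM with CPT-11 alone and 3.28 to 4.07 FPKM in untreated cells. The 3 hepatocyte markers summed to at most 0.323 FPKM in any library. The third CPT-11 library stood apart from the other 2 of its group in its GC slope. For this slope, each gene's log2(FPKM + 1) was taken minus its mean over the 12 libraries. These deviations were set against the GC content of the gene's longest transcript. The slope is thus relative to all 4 groups. It was 0.079 (log2 per 10 points of GC), against slopes of -0.147 and -0.170 in those 2. Slopes were 0.098 to 0.128 in silenced cells, 0.012 to 0.071 after lovastatin and -0.136 to -0.012 in untreated cells. For the 7 genes, results that depend on this library are given with and without it.

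Levels are in FPKM, reads divided by gene length and by the scaled depth of the library, so that genes can be set beside each other. Differences are limma log2 differences of FPKM + 1 with their SE, and adjusted p-values are Benjamini-Hochberg values over 18047 genes at a threshold of 0.05. This scale understates the change of a gene at a low level, so ratios of mean FPKM are also given. All 7 genes passed the filter on low values. The labels do not state whether libraries of the same group are separate cultures, and p-values therefore measure only the spread between these libraries, which may be technical. A lower level in bulk RNA cannot tell fewer expressing cells from less RNA per cell.

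**Figure D1:**
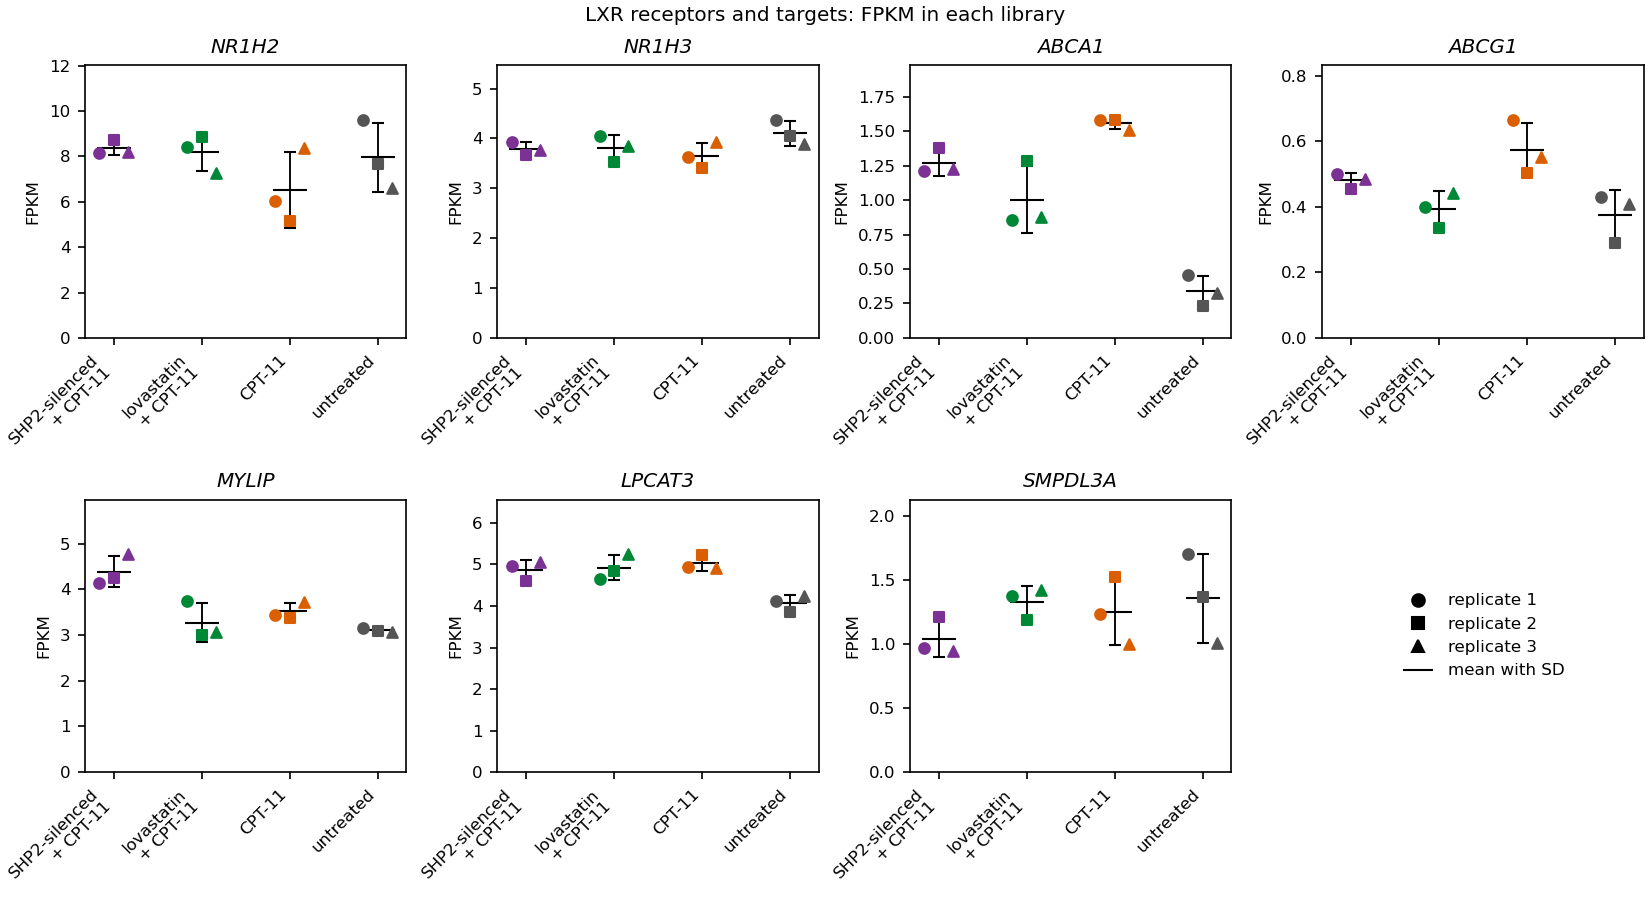
FPKM of the 7 genes in each of the 12 libraries, by group; symbols mark the replicate, and the bar and whiskers are the mean and SD of 3 libraries. ABCA1 lay between 0.233 and 0.457 FPKM in untreated cells and at 0.852 FPKM or more in every library with CPT-11, whereas NR1H2 and NR1H3 overlapped between all 4 groups.

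NR1H2, which had the highest mean FPKM of the 7 genes, encodes LXR beta, the broadly expressed form (ENSG00000131408, GRCh38 chromosome 19, 50329653 to 50382982, plus strand). It had 8.17, 8.73 and 8.19 FPKM in silenced cells, 8.40, 8.84 and 7.27 FPKM after lovastatin and CPT-11, 6.02, 5.15 and 8.39 FPKM with CPT-11 alone, and 9.61, 7.65 and 6.59 FPKM in untreated cells. The first and second CPT-11 libraries were the lowest of all 12, the third was within the range of the other groups, and every pair of groups overlapped. The difference of CPT-11 alone from untreated cells was -0.26 ± 0.15 (limma, adjusted p = 0.29). Silenced cells differed from CPT-11 alone by 0.34 ± 0.15 (limma, adjusted p = 0.12), and lovastatin-pretreated cells by 0.31 ± 0.15 (limma, adjusted p = 0.27). None of these 3 differences passed with the third CPT-11 library in the fit. Without that library all 3 passed, at -0.43, 0.51 and 0.48, with adjusted p of 0.031, 0.0082 and 0.018 (limma). Over all alternatives adjusted p ran from 0.031 to 0.65, from 0.0082 to 0.4 and from 0.018 to 0.7 in the same order.

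The longest NR1H2 transcript holds 60.9% GC, more than that of 88.1% of tested genes. The NR1H2 level moved with the GC slope of the libraries. The 2 CPT-11 libraries with slopes of -0.170 and -0.147 had 5.15 and 6.02 FPKM, and the third, with a slope of 0.079, had 8.39 FPKM. The 3 protein-coding genes whose pattern over the 12 libraries was most like that of NR1H2 were EGFL7, IRF2BP1 and TRPM4, with a Pearson r of 0.972, 0.971 and 0.962, given as a description. Their GC contents are 68.1%, 68.5% and 63.5%. The part of GC in the NR1H2 values was not tested.

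**Figure D2:**
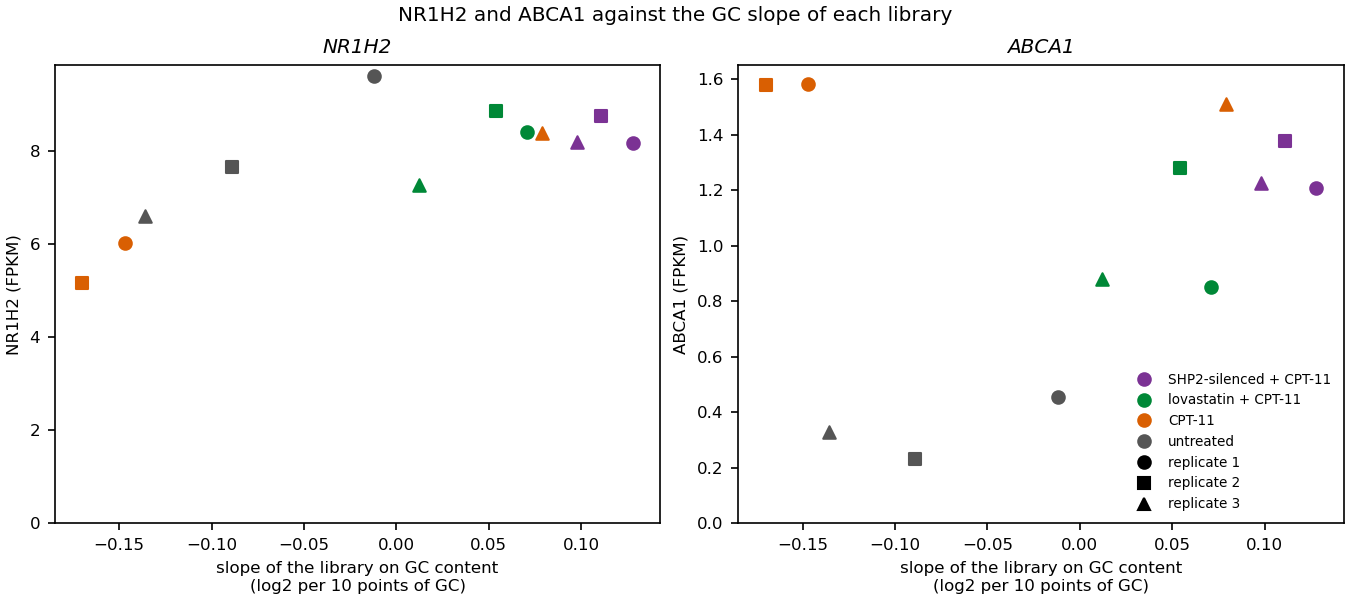
FPKM of NR1H2 (left) and ABCA1 (right) against the GC slope of each library, in log2 per 10 points of GC, for 12 libraries. The slope is that of each gene's deviation from its mean over the 12 libraries, on gene GC content. Colour is the group and the symbol the replicate. The 2 CPT-11 libraries with the most negative slopes have the lowest NR1H2 values, 5.15 and 6.02 FPKM, while the 3 CPT-11 libraries have ABCA1 values of 1.51 to 1.58 FPKM at slopes from -0.170 to 0.079.

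NR1H3 encodes LXR alpha, the form known for its abundance in liver and macrophages (ENSG00000025434, chromosome 11, 47248300 to 47269032, plus strand). It had 3.93, 3.66 and 3.77 FPKM in silenced cells, 4.05, 3.52 and 3.86 FPKM after lovastatin and CPT-11, 3.64, 3.40 and 3.92 FPKM with CPT-11 alone, and 4.37, 4.05 and 3.89 FPKM in untreated cells. NR1H3 was thus below NR1H2 in each library, per length. No difference between groups passed the test, with adjusted p from 0.26 to 0.97 over the 6 comparisons (limma). The interval of the difference of CPT-11 alone from untreated cells was -0.30 to 0.03 on the log2 scale (95%). Of the NR1H3 exon bases, 189 (4.169%) overlap ACP2 on the other strand. The most alike genes were STMN3, DUT and EFNA2 (Pearson r of 0.911, 0.883 and 0.881 over 12 libraries).

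ABCA1 encodes the transporter that hands cholesterol and phospholipid to lipid-poor apolipoprotein A-I (ENSG00000165029, chromosome 9, 104781002 to 104928237, minus strand). It had 1.21, 1.38 and 1.23 FPKM in silenced cells, 0.852, 1.28 and 0.879 FPKM after lovastatin and CPT-11, 1.58, 1.58 and 1.51 FPKM with CPT-11 alone, and 0.457, 0.233 and 0.328 FPKM in untreated cells. All 9 libraries with CPT-11 were above the 3 untreated ones, the CPT-11 libraries were the highest, and the second lovastatin library reached into the range of silenced cells. These values rest on 210 to 264 reads per library in silenced cells, 158 to 234 after lovastatin, 274 to 291 with CPT-11 alone and 42 to 75 in untreated cells.

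With CPT-11 alone, ABCA1 was higher than in untreated cells, at 1.56 ± 0.0394 against 0.339 ± 0.112 FPKM (SD, n = 3 each), a ratio of 4.59. The difference was 0.94 ± 0.09 (limma, adjusted p = 5.4e-05), and 2.25 ± 0.21 on the log2 scale of voom, which models the reads recovered from FPKM and adds no FPKM. ABCA1 also rose in silenced cells, at 1.27 ± 0.0933 FPKM, 3.75 times the untreated mean (0.76 ± 0.09, limma, adjusted p = 9.6e-05). After lovastatin and CPT-11 it reached 1.00 ± 0.240 FPKM, 2.96 times the untreated mean (0.58 ± 0.09, limma, adjusted p = 0.0008). These 3 comparisons share the untreated libraries, and all 3 calls held in each of the 14 alternatives run. The macrophage marker ITGAM had 0.879 FPKM in silenced cells, 0.637 FPKM after lovastatin and 0.592 FPKM with CPT-11 alone. It was higher there than in untreated cells, at 0.157 FPKM (limma, adjusted p = 0.00025, 0.0025 and 0.0072). CSF1R, the other tested marker of that list, passed in none of these groups (limma, adjusted p = 0.13, 0.72 and 0.37 in the same order). The fibroblast marker COL1A1 was higher than in untreated cells in silenced cells (0.54, adjusted p = 0.0028) and after lovastatin (0.36, adjusted p = 0.028, limma). PDGFRB was higher in those groups as well (limma, adjusted p = 0.015 and 0.044). With CPT-11 alone neither COL1A1 nor PDGFRB passed (limma, adjusted p = 0.34 and 0.75), and the endothelial marker VWF passed in no group given CPT-11. Of the 5 epithelial markers, 4 were called higher and 0 lower in silenced cells against untreated cells. The counts were 2 and 1 after lovastatin, and 2 and 0 with CPT-11 alone (limma). The part of these markers in the ABCA1 values was not tested.

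Among cells given CPT-11, ABCA1 was lower after lovastatin than with CPT-11 alone in every library, 1.00 ± 0.240 against 1.56 ± 0.0394 FPKM, a ratio of 0.645. The difference of -0.36 ± 0.09 had an unadjusted p of 0.0022 and did not pass the correction (limma, adjusted p = 0.13). The adjusted p was 0.022 without the third CPT-11 library, where the difference was -0.37, and ran from 0.022 to 0.42 over all alternatives, none of which turned the direction (limma). Silenced cells were also below CPT-11 alone in each library, by -0.17 ± 0.09 (limma, adjusted p = 0.18, interval -0.37 to 0.03). Silenced cells differed from lovastatin-pretreated cells by 0.19 ± 0.09, with overlapping groups (limma, adjusted p = 0.27). The most alike genes were ZNF394, OAS3, an interferon-induced gene, and HSPA12A (Pearson r of 0.972, 0.964 and 0.954 over 12 libraries).

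ABCG1 encodes the transporter that moves cholesterol towards mature HDL (ENSG00000160179, chromosome 21, 42199689 to 42297244, plus strand). It was the lowest of the 7 genes with CPT-11 and had 28 to 66 reads per library. Its levels were 0.502, 0.455 and 0.485 FPKM in silenced cells, 0.400, 0.335 and 0.443 FPKM after lovastatin and CPT-11, 0.666, 0.502 and 0.553 FPKM with CPT-11 alone, and 0.429, 0.289 and 0.409 FPKM in untreated cells. The order of group means was that of ABCA1, but the lovastatin and untreated groups overlapped. CPT-11 alone was above untreated cells in every library, at a ratio of 1.53 and a difference of 0.19 ± 0.06, which just missed the threshold (limma, adjusted p = 0.0503). It passed with scaling to library totals (adjusted p = 0.04) and without the second CPT-11 library (0.048, limma), and over all alternatives adjusted p ran from 0.04 to 0.34. After lovastatin the level was below CPT-11 alone in every library, by -0.18 ± 0.06, with an unadjusted p of 0.015 (limma, adjusted p = 0.19). Silenced cells lay between those groups and differed from CPT-11 alone by -0.09 ± 0.06 (limma, adjusted p = 0.31). The most alike genes were DCP1B, OSBP2 and ANAPC5 (Pearson r of 0.814, 0.8 and 0.793 over 12 libraries).

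MYLIP, also called IDOL, encodes a ubiquitin ligase that acts with the conjugating enzyme UBE2D3 and its relatives (ENSG00000007944, chromosome 6, 16129125 to 16148248, plus strand). It had 4.14, 4.24 and 4.77 FPKM in silenced cells, 3.75, 2.99 and 3.06 FPKM after lovastatin and CPT-11, 3.44, 3.38 and 3.73 FPKM with CPT-11 alone, and 3.14, 3.10 and 3.06 FPKM in untreated cells. The 3 silenced libraries were the highest of all 12. MYLIP rose in silenced cells relative to untreated cells, by 0.39 ± 0.08 (limma, adjusted p = 0.0039), a ratio of 1.41. It was also higher in silenced than in lovastatin-pretreated cells, by 0.34 ± 0.08 (limma, adjusted p = 0.036), a ratio of 1.34. Among other settings, that call was lost without a filter on low values (adjusted p = 0.062), with only the 2 groups in the fit (0.05 after rounding), and on leaving out lovastatin library 2 or 3 or any of the 3 silenced libraries (0.069 to 0.14, limma). Over all alternatives adjusted p ran from 0.02 to 0.14. The silenced libraries, highest in MYLIP, also had the highest GC slopes, 0.098 to 0.128, against 0.012 to 0.071 after lovastatin and -0.136 to -0.012 in untreated cells. The longest MYLIP transcript holds 45.8% GC, more than that of only 38.8% of tested genes. The MYLIP level had a Pearson r of 0.61 with the GC slope over 12 libraries. The part of GC in the MYLIP values was not tested.

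The difference of silenced cells from CPT-11 alone was 0.25 ± 0.08, with no overlap of the groups, and missed the threshold (limma, adjusted p = 0.0514). It passed with genes of a mean of at least 1 FPKM tested (0.037), with scaling to library totals (0.028), with no variance trend (0.039) and without the third CPT-11 library (0.025, limma), and the range over all alternatives was 0.025 to 0.16. CPT-11 alone differed from untreated cells by 0.14 ± 0.08 (limma, adjusted p = 0.3), although its 3 libraries were above the 3 untreated ones. The most alike genes were PMPCA, BID and ELOB (Pearson r of 0.956, 0.953 and 0.942 over 12 libraries).

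LPCAT3 encodes the acyltransferase that places polyunsaturated fatty acids into membrane phospholipids (ENSG00000111684, chromosome 12, 6976186 to 7018510, minus strand). It had 4.96, 4.59 and 5.05 FPKM in silenced cells, 4.65, 4.85 and 5.25 FPKM after lovastatin and CPT-11, 4.94, 5.23 and 4.91 FPKM with CPT-11 alone, and 4.12, 3.86 and 4.23 FPKM in untreated cells. All 9 libraries with CPT-11 were above the 3 untreated ones, and the 3 groups with CPT-11 overlapped each other. The difference from untreated cells was 0.21 ± 0.07 in silenced cells, 0.22 ± 0.07 after lovastatin and 0.25 ± 0.07 with CPT-11 alone, with adjusted p of 0.029, 0.029 and 0.028 (limma).

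These calls were near the threshold. With only the 2 groups in the fit, adjusted p was 0.052 after lovastatin and 0.13 with CPT-11 alone (limma). Leaving out untreated library 1 or 2, silenced library 1 or 3, lovastatin library 2 or 3, or CPT-11 library 1 or 2 ended the calls of their comparisons, with adjusted p from 0.052 to 0.11 (limma). LPCAT3 shares 3100 exon bases (65.61%) with EMG1, a ribosome biogenesis gene on the other strand, and the sources used here do not give the strand setting of the counting. Reads of the 2 genes cannot be told apart without strand, and the LPCAT3 values are uncertain to that extent. To which gene reads on the shared bases were assigned is not known. EMG1 had 8.90 ± 0.602 FPKM in silenced cells and 7.73 ± 0.734 FPKM after lovastatin. It had 5.80 ± 1.77 FPKM with CPT-11 alone and 8.04 ± 0.727 FPKM in untreated cells (SD, n = 3 each). The libraries with CPT-11 alone had 5.01, 4.56 and 7.83 FPKM of EMG1, the last being the third library. The part of EMG1 reads in the LPCAT3 values was not tested. The most alike genes of LPCAT3 were TCP11L1, TRIML2 and CREBL2 (Pearson r of 0.965, 0.929 and 0.929 over 12 libraries).

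SMPDL3A encodes a secreted phosphodiesterase related to acid sphingomyelinase and is a known LXR target in human macrophages (ENSG00000172594, chromosome 6, 122789049 to 122809720, plus strand). It had 0.974, 1.21 and 0.948 FPKM in silenced cells, 1.38, 1.19 and 1.42 FPKM after lovastatin and CPT-11, 1.24, 1.53 and 1.00 FPKM with CPT-11 alone, and 1.71, 1.37 and 1.01 FPKM in untreated cells. All 4 groups overlapped, and the untreated libraries alone spanned most of the range. No comparison passed the test, with adjusted p from 0.2 to 0.96 (limma). The most alike genes were SOWAHC, DLG3 and CLK2 (Pearson r of 0.867, 0.816 and 0.771 over 12 libraries).

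Counted by comparison, 2 of the 7 genes rose with CPT-11 alone relative to untreated cells, ABCA1 and LPCAT3, and 0 fell (limma). Of all tested genes 16.6% were called, 8.85% higher and 7.72% lower. The libraries of both groups did not overlap for 4 of the 7, as for 29.4% of all genes. With lovastatin and CPT-11 against untreated cells ABCA1 and LPCAT3 were called and were also the 2 that did not overlap. There 29% of all genes were called, 14.7% higher and 14.3% lower, and 47.3% did not overlap. In silenced against untreated cells 3 were called, ABCA1, MYLIP and LPCAT3, and 4 did not overlap. There 37.8% of all genes were called, 18.3% higher and 19.5% lower, and 54.1% did not overlap. In silenced against lovastatin-pretreated cells MYLIP was called, and ABCG1 and MYLIP did not overlap. There 6.84% of all genes were called, 2.58% higher and 4.26% lower, and 35.5% did not overlap. With 7 genes these counts are a description beside the background, and nothing particular to the 7 is read from them.

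In lovastatin-pretreated against CPT-11 cells 0 of the 7 genes passed the test with limma and 0 with voom, where 0.465% of all genes were called, 0.393% higher and 0.072% lower (limma). The libraries did not overlap for 2 of the 7 and for 17.1% of all genes. At an unadjusted p under 0.05 there were 2, ABCA1 and ABCG1, both lower after lovastatin. Without the third CPT-11 library ABCA1 and NR1H2 passed and 5458 genes were called, against 84 with it. In silenced against CPT-11 cells 0 of the 7 passed with limma and 0 with voom, where 22% of all genes were called, 10% higher and 12% lower. The libraries did not overlap for 3 of the 7 and for 35.9% of all genes. At an unadjusted p under 0.05 there were 2, MYLIP and NR1H2, both higher in silenced cells. Without the third CPT-11 library these 2 passed and 7850 genes were called, against 3976 with it. The median log2 difference of the 7 genes was -0.03 after lovastatin and -0.04 in silenced cells, each against CPT-11 alone, and 0.14 with CPT-11 alone against untreated cells. The medians of all genes were 0.00, 0.00 and -0.01.

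**Figure D3:**
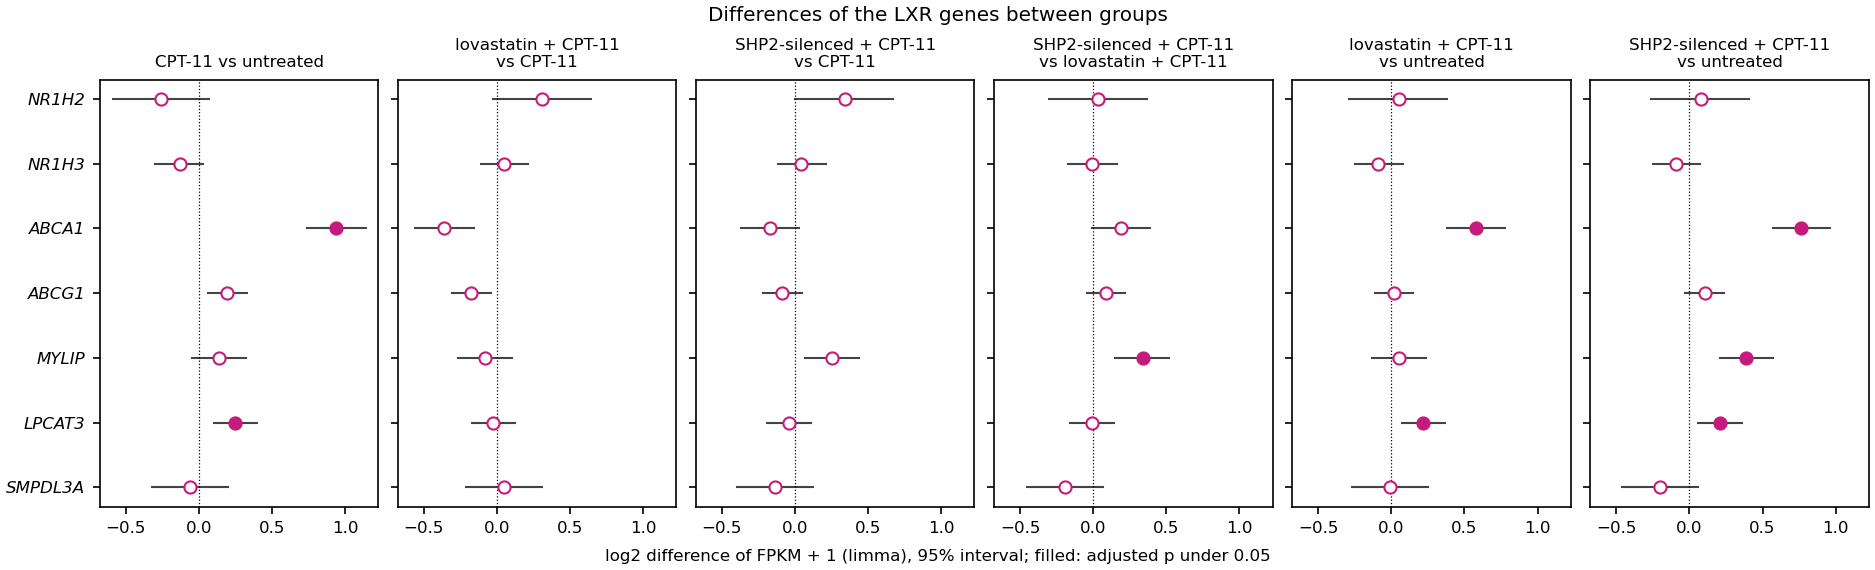
Differences of log2(FPKM + 1) of the 7 genes in the 6 comparisons, each with its 95% interval from limma; filled circles have an adjusted p under 0.05. ABCA1 stands at 0.94, 0.58 and 0.76 in the comparisons with untreated cells, and in lovastatin-pretreated or silenced cells against CPT-11 alone no circle is filled.

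Genes around LXR were described from 8 lists. Limma called 8.85% of all genes higher and 7.72% lower with CPT-11 alone against untreated cells. It called 0.393% higher and 0.072% lower after lovastatin, and 10% higher and 12% lower in silenced cells, each against CPT-11 alone. The list counts below stand beside these shares. They are given only with the third CPT-11 library, without which 5458 genes were called after lovastatin, against 84 with it. Partners and coregulators of LXR held 14 tested genes, of which 0 rose and 2 fell with CPT-11 alone relative to untreated cells. CREBBP, a histone acetyltransferase, fell to 6.23 ± 0.116 FPKM with CPT-11, against 8.52 ± 0.342 FPKM in untreated cells (-0.40 ± 0.07, limma, adjusted p = 0.0027). Its relative EP300 fell by 0.31 on the log2 scale (limma, adjusted p = 0.017), a call that was lost with only the 2 groups in the fit (0.09). In lovastatin-pretreated against CPT-11 cells 0 of 14 were called by limma. In silenced against CPT-11 cells 1 rose and 4 fell (limma). RXRB, which encodes a retinoid X receptor, had 12.8 ± 0.383 FPKM in silenced cells and 9.61 ± 2.05 FPKM with CPT-11 alone (adjusted p = 0.036). NCOA2, a coactivator gene, had 3.66 ± 0.348 FPKM in silenced cells and 5.38 ± 0.627 FPKM with CPT-11 alone (limma, adjusted p = 0.013). PPARG, a receptor gene upstream of NR1H3 in macrophages, had 2.67 ± 0.0446 FPKM in silenced cells and 3.67 ± 0.455 FPKM with CPT-11 alone (limma, adjusted p = 0.02).

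Of 19 other LXR targets 9 were tested; ABCG5, ABCG8, LPL, CETP, CYP7A1 and 5 more had too few reads in this line. SCD and SREBF1, the LXR targets of fatty acid synthesis, fell with CPT-11 alone while ABCA1 was higher. SCD, a fatty acid desaturase gene, had 142 ± 2.79 FPKM with CPT-11 and 207 ± 3.21 FPKM in untreated cells (-0.54 ± 0.05, limma, adjusted p = 2.1e-05). SREBF1, which encodes SREBP1, had 16.8 ± 3.2 FPKM with CPT-11 and 26.6 ± 1.56 FPKM in untreated cells (-0.65 ± 0.10, limma, adjusted p = 0.0017). MERTK, a receptor gene of apoptotic cell uptake, was higher at 4.91 ± 0.346 FPKM, against 3.36 ± 0.232 FPKM in untreated cells (0.44 ± 0.08, limma, adjusted p = 0.003). RNF145, a ubiquitin ligase gene, also passed the test, by -0.20, and lost the call with only the 2 groups in the fit (limma, adjusted p = 0.12). In all, 1 of these 9 rose and 3 fell.

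After lovastatin 2 of these 9 LXR targets rose relative to CPT-11 alone and 0 fell, while ABCA1 and ABCG1 were lower without passing the test. SCD had 328 ± 10.4 FPKM after lovastatin, against 142 ± 2.79 FPKM with CPT-11 alone (1.20 ± 0.05, limma, adjusted p = 1.2e-07). FASN, the fatty acid synthase gene, had 253 ± 9.08 FPKM after lovastatin, against 143 ± 24.0 FPKM with CPT-11 alone (0.84 ± 0.10, limma, adjusted p = 0.0016). SCD and FASN are also SREBP targets. The FASN call was lost with only the 2 groups in the fit (limma, adjusted p = 0.095). In silenced against CPT-11 cells FASN rose by 0.39 and MERTK fell by 0.38 on the log2 scale (limma, adjusted p = 0.02 and 0.011).

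Among enzymes that make or remove the sterol ligands, DHCR7 and CYP27A1 fell with CPT-11 alone relative to untreated cells. DHCR7, a reductase late in cholesterol synthesis, had 21.3 ± 2.53 FPKM with CPT-11 and 28.2 ± 1.76 FPKM in untreated cells (limma, adjusted p = 0.0043). CYP27A1, which makes an oxysterol, had 0.459 ± 0.128 FPKM with CPT-11 and 0.911 ± 0.206 FPKM in untreated cells (limma, adjusted p = 0.032). Both calls were lost in at least 1 alternative, with adjusted p up to 0.063 for DHCR7 and 0.16 for CYP27A1 (limma). After lovastatin DHCR7 and EBP, a sterol isomerase gene, rose relative to CPT-11 alone, by 1.35 and 0.83 (limma, adjusted p = 3.5e-06 and 0.00015).

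Sterol transport and storage held 18 tested genes, of which 3 rose and 0 fell with CPT-11 alone relative to untreated cells. ABCG4, a relative of ABCG1 in sterol efflux, had 2.51 ± 0.211 FPKM with CPT-11 and 1.36 ± 0.237 FPKM in untreated cells (0.57 ± 0.10, limma, adjusted p = 0.0028). It was thus above ABCG1 in level, per length, in both groups. LIPA, the lysosomal acid lipase gene, and STARD4, a cytosolic sterol carrier gene, rose by 0.27 and 0.30, and lost the call with only the 2 groups in the fit (limma, adjusted p = 0.11 and 0.12). After lovastatin STARD4 had 28.3 ± 0.202 FPKM, against 14.5 ± 1.52 FPKM with CPT-11 alone (0.92 ± 0.07, limma, adjusted p = 6.7e-05); it was the 1 gene called of 18. In silenced cells it had 10.8 ± 0.0832 FPKM (-0.39 ± 0.07 against CPT-11 alone, limma, adjusted p = 0.0072), and 2 genes of the list rose and 4 fell there.

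Among other transporters of families A and G, 4 of 8 tested genes rose with CPT-11 alone relative to untreated cells and 0 fell. ABCA12, a lipid transporter gene known from skin, had 1.68 ± 0.211 FPKM with CPT-11 and 0.215 ± 0.039 FPKM in untreated cells (1.14 ± 0.09, limma, adjusted p = 7.4e-06). ABCA5, ABCG2 and ABCA10 were the others, and each lost the call in at least 1 alternative, with adjusted p up to 0.15 (limma). In lovastatin-pretreated against CPT-11 cells 0 of 8 were called, and in silenced against CPT-11 cells 0 of 8 (limma).

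Among partners and substrates of MYLIP, UBE2D3, a conjugating enzyme gene, had 24.3 ± 0.898 FPKM with CPT-11 alone and 28.5 ± 0.764 FPKM in untreated cells (-0.22 ± 0.06, limma, adjusted p = 0.018), and lost the call with only the 2 groups in the fit (0.085). LRP8, a lipoprotein receptor gene and MYLIP substrate, had 9.62 ± 0.247 FPKM in silenced cells and 11.9 ± 0.719 FPKM after lovastatin (-0.28 ± 0.06, limma, adjusted p = 0.016). That call was lost in 4 of 14 alternatives, with adjusted p up to 0.078.

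On the SREBP2 side, 8 of 10 tested genes rose after lovastatin relative to CPT-11 alone and 0 fell, with a median log2 difference of 1.13. INSIG1, which holds SREBP in the endoplasmic reticulum, had 44.5 ± 0.397 FPKM after lovastatin and 12.6 ± 0.583 FPKM with CPT-11 alone (1.75 ± 0.06, limma, adjusted p = 1.2e-07). SREBF2, named here as host of miR-33a after its values were seen, had means of 45.3 FPKM after lovastatin and 31.9 FPKM with CPT-11 alone (0.50 ± 0.08, limma, adjusted p = 0.017). In silenced against CPT-11 cells 2 of 10 rose, LSS and SREBF2, and 0 fell. With CPT-11 alone against untreated cells 1 rose and 4 fell, INSIG1 by 0.37 on the log2 scale (limma, adjusted p = 0.0025).

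Acyltransferases and sphingomyelin phosphodiesterases, the relatives of LPCAT3 and SMPDL3A, held 14 tested genes, of which 2 rose and 2 fell with CPT-11 alone relative to untreated cells. SMPD1, acid sphingomyelinase, had 5.90 ± 0.504 FPKM with CPT-11 and 3.51 ± 0.356 FPKM in untreated cells (0.61 ± 0.09, limma, adjusted p = 0.00072). MBOAT1, of the LPCAT3 family, had 3.05 ± 0.503 FPKM with CPT-11 and 4.78 ± 0.22 FPKM in untreated cells (-0.52 ± 0.10, limma, adjusted p = 0.0047). After lovastatin 0 of 14 were called relative to CPT-11 alone by limma, and in silenced cells 2 rose and 1, SMPD1, fell.

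Over all tested members of a list, the median log2 difference of CPT-11 alone from untreated cells was 0.26 for the other transporters of families A and G, 0.15 for sterol transport and -0.19 for the SREBP2 side. It was between -0.15 and -0.02 for the 5 other lists, against -0.01 for all genes. After lovastatin, relative to CPT-11 alone, the SREBP2 side stood at 1.13 and the other 7 lists between -0.14 and 0.17, against 0.00 for all genes. In silenced cells, relative to CPT-11 alone, all 8 lists lay between -0.11 and 0.16, against 0.00 for all genes.

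Of the list genes that met the rule for naming, 9 of 25 calls of CPT-11 alone against untreated cells held in every alternative, 11 of 12 of lovastatin against CPT-11 alone, and 0 of 18 of silenced cells against CPT-11 alone. The last set is therefore given as values near the threshold.

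**Figure D4:**
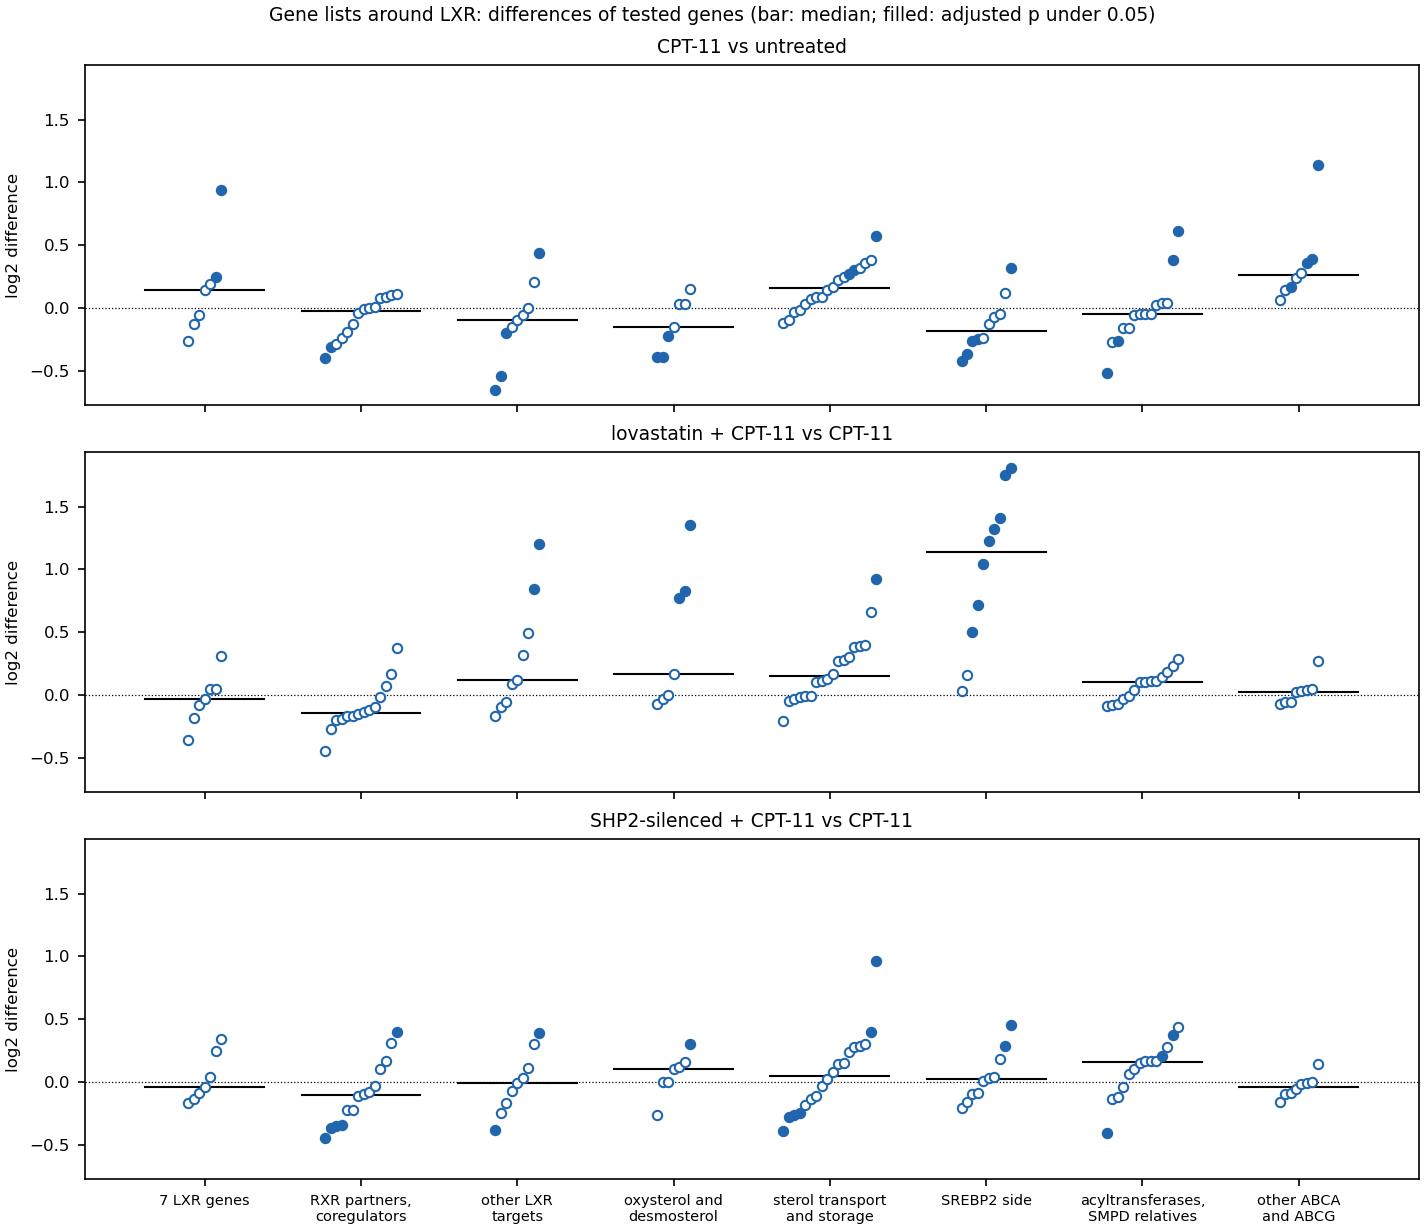
Differences of log2(FPKM + 1) for the 7 LXR genes and tested genes of 7 of the lists, in CPT-11 alone against untreated cells (top), lovastatin-pretreated against CPT-11 cells (middle) and silenced against CPT-11 cells (bottom); bars are medians and filled circles have an adjusted p under 0.05 (limma). In the middle panel the SREBP2 side has a median of 1.13 and the 7 LXR genes one of -0.03.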

How the data were processed

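RNA of 12 HCT-116 libraries was measured as FPKM, deposited by the authors in a single table of 59172 features. Per the submitters' processing notes, DESeq2 1.16.1, featureCounts 1.5.0-p3, HISAT2 2.0.5 and StringTie 1.3.3b were used with build hg19, but the coordinates are those of GENCODE release 29 on GRCh38 for 58631 of 58735 Ensembl features. Per the labels' protocols, RNA was extracted with Trizol and libraries were made with a NEBNext Ultra kit. FPKM times gene length gave whole reads for 100% of values (within 0.01 read), and the scaling of libraries followed size factors of the median-of-ratios kind, so that a shift of all genes together cannot be seen.

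Differences of log2(FPKM + 1) were tested with limma 3.58.1 (R 4.3.3; moderated, with variance trend) on all 12 libraries, with a mean per group. Genes with at least 10 reads in at least 3 libraries and 15 in total were tested, 18047 in all. The fit was also run on simulated reads. These had the same dispersion for every gene, no GC slope and no library that stood apart. That run therefore cannot speak to the effect of the third CPT-11 library. Tables and figures used Python 3.11.15. The 7 genes and the lists were chosen with earlier results of these data known. Named list genes are at most 4 per list and comparison, those with the smallest p; some genes that meet this rule are not reported here. The genes most alike have a mean of at least 5 FPKM. Alternatives were a pseudocount of 0.1, other filters, fits of 2 groups, a replicate block, library totals, voom on recovered reads, no variance trend, and each library left out.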

Additional observations from a re-analysis of the deposited data

How the results depend on the processing

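For the 7 genes, 313 of 330 log2 differences kept direction and side of the threshold under other settings, and 211 of 252 with a library left out. Counts of the 7 genes called changed as follows. With only the 2 groups in the fit, 1 was called for CPT-11 alone and 1 for lovastatin and CPT-11, both against untreated cells, and 0 for silenced against lovastatin-pretreated cells, which was also 0 without a filter. For silenced against CPT-11 cells, 1 was called with a filter of mean 1 FPKM, with library totals and with no variance trend. With a library left out, the counts were 1 to 3 for CPT-11 alone against untreated cells, 0 to 2 for lovastatin against CPT-11 alone, 0 to 2 for silenced cells against CPT-11 alone, 0 to 1 for silenced against lovastatin-pretreated cells, 1 to 2 for lovastatin and CPT-11 against untreated cells, and 2 to 3 for silenced against untreated cells. Over all genes, fits of 2 groups called 1151 for CPT-11 alone against untreated cells, 36 for lovastatin against CPT-11 alone, 451 for silenced cells against CPT-11 alone and 2446 for silenced against lovastatin-pretreated cells. Without a filter 1750 were called for silenced cells against CPT-11 alone, and voom called 141 for lovastatin against CPT-11 alone. With a library left out, all-gene counts were 1930 to 4418, 41 to 5458, 1021 to 7850 and 598 to 731 in these 4 comparisons in the order CPT-11 against untreated, lovastatin against CPT-11, silenced against CPT-11 and silenced against lovastatin. The causes were not tested.

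No pairing by replicate number was seen, since same-numbered libraries deviated from their group means with correlations of -0.39 to 0.18. With 3 libraries per group, this check cannot tell whether same-numbered libraries were prepared together. With the replicate as a block, 2 of the 7 genes were called for CPT-11 alone against untreated cells (ABCA1 and ABCG1, adjusted p of ABCG1 0.045), 0 for silenced against lovastatin-pretreated cells, 1 for lovastatin and CPT-11 against untreated cells and 2 for silenced against untreated cells (limma). The calls that the block lost were LPCAT3 in silenced cells (adjusted p = 0.052), after lovastatin (0.053) and with CPT-11 alone (0.056), each against untreated cells, and MYLIP in silenced against lovastatin-pretreated cells (0.074, limma). The block called 46 genes for lovastatin and 2358 for silenced cells, each against CPT-11 alone, and 771 for silenced against lovastatin-pretreated cells.

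Uncalled differences near 0 changed sign. Scaling to library totals gave LPCAT3 0.00 in silenced against CPT-11 cells, NR1H3 0.02 and LPCAT3 0.02 in silenced against lovastatin-pretreated cells, and SMPDL3A 0.03 in lovastatin-pretreated against untreated cells. With a library left out, the log2 differences ranged from -0.17 to 0.04 for SMPDL3A with CPT-11 alone against untreated cells. In lovastatin-pretreated against CPT-11 cells they ranged from -0.07 to 0.01 for LPCAT3 and from -0.03 to 0.14 for SMPDL3A. In silenced against lovastatin-pretreated cells they ranged from -0.04 to 0.09 for NR1H2, from -0.05 to 0.03 for NR1H3 and from -0.04 to 0.03 for LPCAT3. In lovastatin-pretreated against untreated cells they ranged from -0.07 to 0.17 for NR1H2, from -0.03 to 0.05 for ABCG1, from -0.03 to 0.10 for MYLIP and from -0.12 to 0.09 for SMPDL3A. In silenced against untreated cells NR1H2 ranged from -0.03 to 0.21. ABCG1, with 28 to 66 reads per library, is the gene most limited by depth.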
